A study of Arabidopsis thaliana with 16 samples.

Results

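Jacalin-type lectins are plant proteins with 1 or more copies of a sugar-binding domain, and in *Arabidopsis* the family is much enlarged. JAL23 is one of several family members that associate with complexes of PYK10, a β-glucosidase stored in ER bodies, which are compartments of the endoplasmic reticulum found in *Arabidopsis* and its relatives and linked to defense against herbivores. Other members bind or accompany myrosinases, the enzymes that split glucosinolates when tissue is damaged. The values below are for 2 genes of this family, JAL23 (locus AT2G39330, chromosome 2) and AT1G73040 (chromosome 1), each measured by 1 of the 22746 probe sets tested on the *Arabidopsis* ATH1 array. Both genes were chosen by measured values of these arrays: an earlier analysis had called JAL23 at 48 h of volatiles, and the values that chose AT1G73040 are not recorded. Their differences at 48 h and with feeding are therefore a description with no test.

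All plants were *A. thaliana* Col-0, 4 weeks old, and each of the 16 arrays held RNA of leaves from at least 8 pooled plants, so the values are means over plants. Receiver plants stood in a jar above Lima beans for 24 h or 48 h. Lima beans damaged by leafminer larvae gave the volatile groups (2 arrays at 24 h and 3 at 48 h), and healthy Lima beans gave the control groups (2 and 3 arrays). In a separate experiment, leaves mined by second instar leafminer larvae (fed, 3 arrays) were compared with leaves of healthy plants of equal age (3 arrays). Values are MAS5 signals on a linear scale, as the authors deposited them, or their log2 after values below 1 were set to 1. Median signals of the arrays lay between 19.2 and 30.3, and over all probe sets the median log2 difference from the control was 0.31 at 24 h, 0.08 at 48 h and 0.14 in fed leaves. RCA, the Rubisco activase gene and the 1 of 10 leaf markers with a named probe set, was strong on every array, at 2301 to 4836. Of 8 flower and seed markers 0 had one. The number of arrays limits the precision, and since the labels do not say that replicates were grown apart, each p reflects the spread among these samples alone.

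JAL23 was low in the 24 h groups, intermediate in the 48 h controls and healthy leaves, higher after 48 h of volatiles, and by far highest in leafminer-fed leaves. At 24 h its signal was 17.0 and 15.8 in the controls and 14.2 and 23.4 with volatiles. At 48 h it was 78.8, 40.2 and 31.6 in the controls, against 176, 273 and 113 with volatiles. Every volatile array of 48 h thus lay above every control array of that time. In the feeding experiment the signal was 63.7, 43.3 and 43.0 in healthy leaves and 1067, 1020 and 1009 in fed leaves. The 48 h volatile arrays had a mean log2 signal of 7.46 ± 0.64 (SD, n = 3) and their controls one of 5.54 ± 0.68 (SD, n = 3), a difference of 1.92 or 3.79-fold. It was 5.62 ± 0.33 (SD, n = 3) in healthy and 10.01 ± 0.04 (SD, n = 3) in fed leaves, a difference of 4.39 or 21.0-fold. Tissue samples of this kind cannot tell more RNA per cell from more cells of a type that carries it.

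AT1G73040 was also higher after 48 h of volatiles, by about as much as JAL23, but it was not higher in fed leaves. At 24 h its signal was 10.5 and 7.73 in the controls and 5.60 and 10.8 with volatiles. At 48 h it was 8.29, 25.0 and 13.6 in the controls and 45.9, 85.2 and 43.8 with volatiles, with no overlap. Healthy leaves had 50.8, 46.7 and 59.2, and fed leaves had 45.7, 38.5 and 29.9. The highest fed array was thus just below the lowest healthy array. The 48 h volatile arrays had a mean log2 signal of 5.80 ± 0.54 (SD, n = 3) and their controls one of 3.82 ± 0.80 (SD, n = 3), a difference of 1.97 or 3.93-fold. Fed leaves, at 5.23 ± 0.31 (SD, n = 3), were lower than healthy leaves, at 5.70 ± 0.17 (SD, n = 3), by 0.47 on the log2 scale. That difference was -0.70 after quantile normalization and -0.72 after median scaling, again without overlap. At 24 h, from 5.60 to 10.8, this gene was below the median signal of its arrays. So it was on the 48 h control arrays at 8.29 and 13.6, whose medians were 22.5 and 24.7. With log2 of the value plus 16, its 48 h difference was 1.22, against 1.61 for JAL23.

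**Figure D1:**
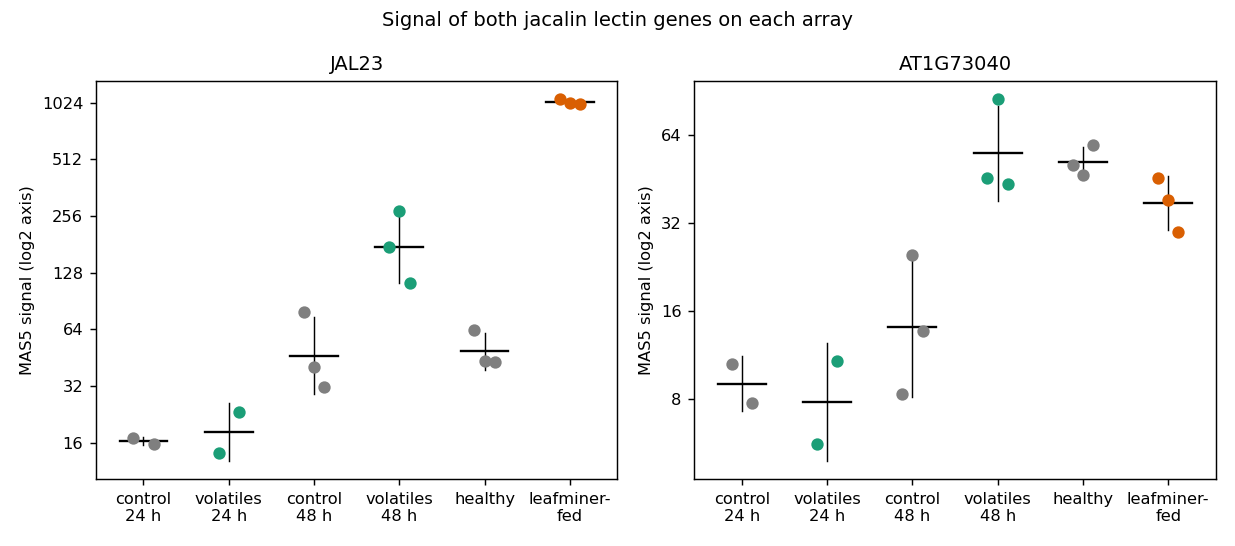
MAS5 signal (log2 axis) of JAL23 (left) and AT1G73040 (right) on each of the 16 arrays, 1 point per array in 6 groups, with the horizontal line at the mean and the vertical line 1 SD either side on the log2 scale. JAL23 reached 1009 to 1067 in fed leaves. AT1G73040 had its highest mean after 48 h of volatiles, at 43.8 to 85.2, which overlapped healthy leaves at 46.7 to 59.2.

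At 24 h neither gene showed a change that exceeded the spread between arrays. The call that chose JAL23 was that of 48 h. Whether the 24 h values had a part in the choice of AT1G73040 is not recorded, so its test may not be independent of the choice. limma, fitted on all 16 arrays and adjusted over all probe sets by Benjamini and Hochberg, gave JAL23 a log2 change of 0.15 (SE 0.44, adjusted p = 0.9), with a 95% interval of -0.80 to 1.1. The sign was not stable, since quantile normalization gave -0.14 and median scaling -0.16. AT1G73040 had a log2 change of -0.21 (SE 0.49, adjusted p = 0.86), with an interval of -1.27 to 0.85. For both genes 1 volatile array lay above and 1 below the 24 h controls. With 2 arrays a group these intervals still allow changes of about 2-fold in either direction. A probe set is called here where the adjusted p reaches 0.05 or less and the groups differ 2-fold or more. At 24 h this held for 0.0044% of all probe sets upward and 0.0132% downward, or 0.0176% in all, and for neither lectin gene.

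The levels of the 2 genes also differed among the groups that met no leafminer-damaged beans or larvae. JAL23 was 1.5 higher on the log2 scale in the 48 h controls than in the 24 h controls, or 2.83-fold, with no overlap of arrays, and the difference stayed at 1.32 after quantile normalization. AT1G73040 differed by 0.65 between these groups, and the arrays overlapped. Compared with healthy leaves of the feeding experiment, the 48 h controls differed by -0.08 for JAL23, with overlapping arrays, and by -1.88 for AT1G73040, with 8.29 to 25.0 against 46.7 to 59.2. The experiments were separate, so the experiment and the exposure to healthy Lima beans cannot be told apart in this last comparison. Nor do the labels say whether the 24 h and 48 h controls were handled together, so time in the jar and handling cannot be told apart between them. For AT1G73040 the 48 h volatile arrays were only 0.10 above healthy leaves and overlapped with them.

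Ordered by mean log2 signal, JAL23 went from the 24 h controls through the 24 h volatile group, the 48 h controls, healthy leaves and the 48 h volatile group to fed leaves. The arrays of the 24 h groups overlapped, as did those of the 48 h controls and healthy leaves. All other neighbors in that order were apart. AT1G73040 went from the 24 h volatile group through the 24 h controls, the 48 h controls, fed leaves and healthy leaves to the 48 h volatile group. Arrays of the 24 h volatile group overlapped with the 24 h controls, and these with the 48 h controls. Healthy leaves overlapped with the 48 h volatile group, and the other neighbors were apart. Over the 16 arrays, after subtraction of each array's median, the genes had a Pearson correlation of 0.54 (Spearman 0.55). Without the 3 fed arrays it was 0.73 (Spearman 0.70) over 13 arrays, which share groups and arrays and are therefore not independent points.

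Of the other family members matched to a probe set, none was called with volatiles, where few probe sets of the array were called at all. The family, listed by locus and name, held 49 loci. The annotation matched 26 of them to a probe set, in 24 probe sets. Of these, 2 match several genes and are not named. The remaining loci had no match and were not assessed, and 8730 probe sets of the array were not listed with a gene. The 22 probe sets other than those of JAL23 and AT1G73040 were called in 0 cases at 24 h and in 0 cases at 48 h. At an unadjusted p under 0.05 there were 0 of 22 at 24 h, where 12.6% of all probe sets were below that value, and 3 of 22 at 48 h, where it was 13.2%. Of all probe sets, 0.558% were called up at 48 h and 0.207% down, or 0.765% in all. At 24 h the share called was 0.0176%. With so few calls over the whole array, the counts of 0 calls say little of the family. The median log2 change of the 22 was 0.14 at 24 h and 0.07 at 48 h, beside 0.31 and 0.08 for all probe sets. Many of them were weakly detected, and 5 of the 22 had a mean log2 signal at or above the median of all probe sets (4.61).

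AT1G52000, a family member on chromosome 1, had the family profile with the highest correlation with JAL23 among the 5 members above the median of all probe sets. At 48 h its signal was 38.7, 42.2 and 41.4 in the controls and 82.6, 166 and 64.6 with volatiles. All 3 volatile arrays were above the controls, with a log2 change of 1.24 (SE 0.33, adjusted p = 0.11), which did not pass over all probe sets. It passed after quantile normalization (1.17, adjusted p = 0.029), after median scaling (1.13, adjusted p = 0.035) and among the upper 60% of probe sets by signal (adjusted p = 0.027). In fed leaves it reached 1096, 922 and 989, from 99.1, 54.9 and 98.0 in healthy leaves. Its Pearson correlation with JAL23 over the 16 arrays was 0.94 (Spearman 0.90), and with AT1G73040 0.52 (Spearman 0.64). JAL23 and AT1G52000 were each highest on the fed arrays, and their correlation without those arrays was not taken.

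The other 4 members above the median of all probe sets, and AT1G52100, which reached it only in the groups of the volatile experiment, had another order of levels. Each had a 48 h log2 change below 0 that did not pass the test. JAL22, which lies near JAL23 on chromosome 2 with AT2G39320 between them and also associates with PYK10 complexes, had a signal of 243 to 293 in the 48 h controls and 227 to 324 after 48 h of volatiles, a log2 change of -0.02 (SE 0.37, adjusted p = 1). JAL34 had a log2 change of -0.66 (SE 0.26, adjusted p = 0.3), JAL33 one of -0.15 (SE 0.31, adjusted p = 0.91), AT1G19715 one of -0.51 (SE 0.24, adjusted p = 0.38) and AT1G52100 one of -0.25 (SE 0.53, adjusted p = 0.91). At 24 h AT1G52100 went from 59.0 and 38.5 to 99.4 and 66.0, which did not pass the test (log2 change 0.76, SE 0.64, adjusted p = 0.59). These values are in the plot of changes by comparison.

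**Figure D2:**
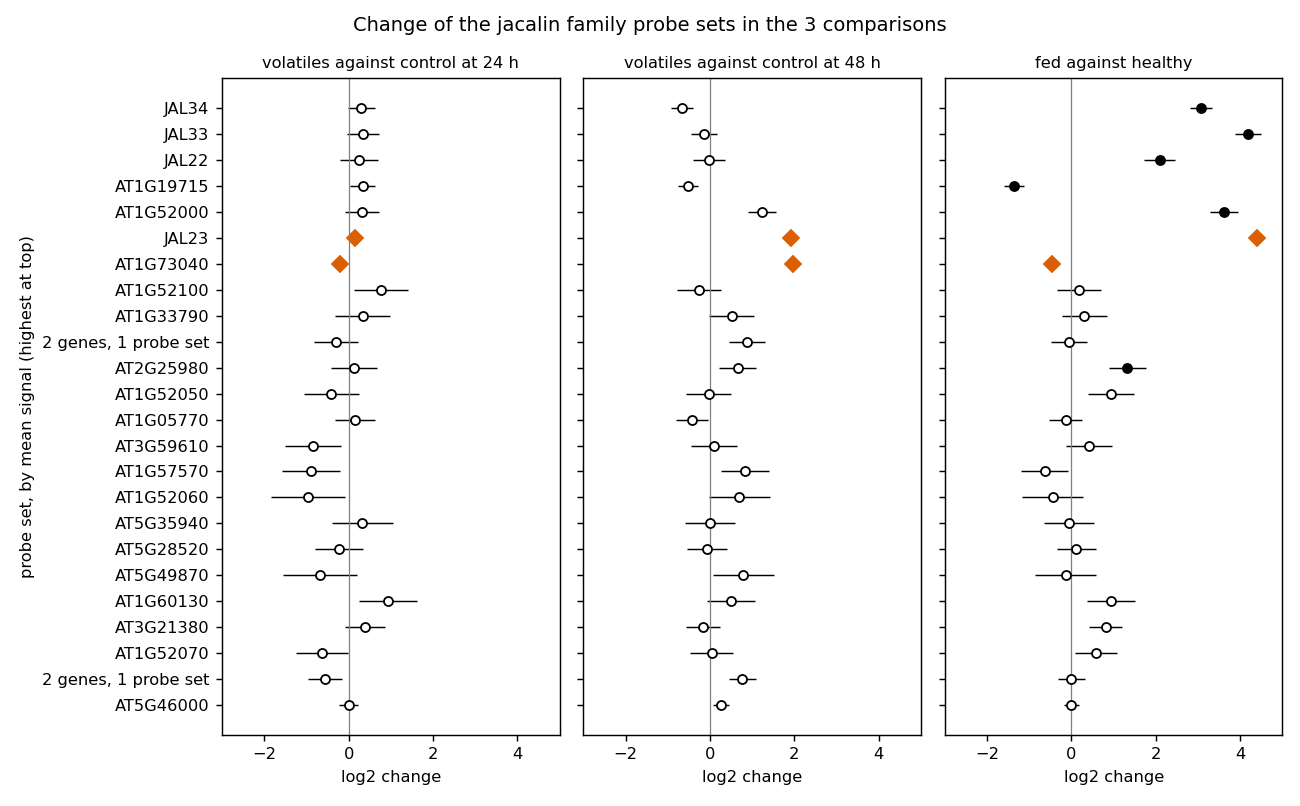
Log2 change of the 24 jacalin family probe sets in the 3 comparisons, ordered by mean signal. Circles are tested probe sets with limma's SE as bars, filled where called, and diamonds are JAL23 and AT1G73040. Both diamonds lie near 2 at 48 h, and with feeding the diamond of JAL23 lies at 4.39 and that of AT1G73040 at -0.47.

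With feeding, some of the other family members were called. Of the 22 other probe sets, 5 rose and 1 fell, or 27.3%, beside 12.8% of all probe sets called up, 6.49% called down and 19.2% called in either direction. At an unadjusted limma p under 0.05 there were 6 of 22 (27.3%), where 38.6% of all probe sets were below that value. The family's share was thus above that of all probe sets by calls and below it by unadjusted p. JAL33 had 24.6, 15.2 and 9.29 in healthy leaves and 191, 302 and 371 in fed leaves, a log2 rise of 4.19 (SE 0.31, adjusted p = 1.3e-06). AT1G52000 rose by 3.62 (SE 0.33, adjusted p = 6.1e-06), JAL34 by 3.07 (SE 0.26, adjusted p = 3.8e-06) and JAL22 by 2.09 (SE 0.37, adjusted p = 0.00097). AT1G19715 fell by 1.36 (SE 0.24, adjusted p = 0.00084), from 159, 144 and 296 to 70.0, 76.4 and 74.4. AT2G25980 rose by 1.32 (SE 0.45, adjusted p = 0.041) at low signal, with overlapping arrays, and was no longer called after quantile normalization or median scaling. For the remaining 16 probe sets no change was called, among them AT1G52100 (0.18, SE 0.53, adjusted p = 0.86).

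For JAL22, JAL33 and JAL34 the same fed array was the lowest of the 3. JAL22 had 53.0 there and 131 and 175 on the other fed arrays, and JAL34 had 608 against 1007 and 989. PYK10 had 513 against 828 and 1054. JAL23 was highest on that array, at 1067 against 1020 and 1009.

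Of the measured ER body genes, most rose with feeding. For the 14 genes listed the annotation gave 6 probe sets, 1 of them matching 2 genes. In fed leaves 4 of the 6 were called up, beside 12.8% of all probe sets. NAI1, a transcription factor needed for ER bodies and for PYK10 expression, rose from 18.6, 20.2 and 25.2 to 164, 177 and 225, a log2 change of 3.14 (SE 0.23, adjusted p = 1e-06). PYK10 rose by 3.18 (adjusted p = 9e-06) and NAI2, a component of the ER body, by 1.91 (adjusted p = 0.00029). At 48 h of volatiles limma called 0 of the 6, beside 0.765% of all probe sets, with log2 changes of 0.25 for NAI1 (adjusted p = 0.71), 0.13 for PYK10 (adjusted p = 0.93) and -0.31 for NAI2 (adjusted p = 0.72). At 24 h it also called 0 of the 6, beside 0.0176% of all, with 1 at an unadjusted p under 0.05, BGLU19, whose signal was at the floor on 12 of the 16 arrays. The count at an unadjusted p under 0.05 was 0 of 6 at 48 h. Of all probe sets, 12.6% were below that value at 24 h and 13.2% at 48 h. With 6 probe sets and so few calls over the whole array, these counts say little of the list. The NAI1 arrays of the 48 h groups overlapped, at 19.2 to 26.1 with volatiles and 14.4 to 21.5 in the controls.

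**Figure D3:**
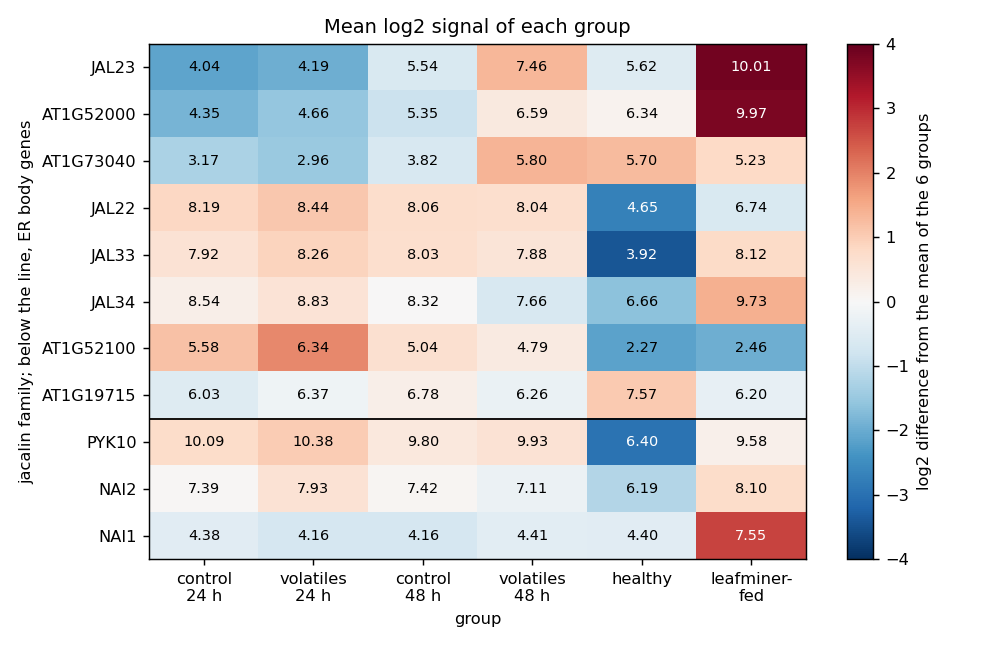
Mean log2 signal (numbers) of 8 jacalin family genes and 3 ER body genes in the 6 groups, colored by the difference from the mean of the 6 groups. JAL23, AT1G52000, JAL34, NAI1 and NAI2 are highest in fed leaves, and JAL22, JAL33, JAL34, AT1G52100, PYK10 and NAI2 are lowest in healthy leaves.

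JAL22, JAL33 and PYK10 were low in healthy leaves and high in all groups of the volatile experiment, unlike JAL23. PYK10 had 71.7 to 116 in healthy leaves, 513 to 1054 in fed leaves and 697 to 1491 on the arrays of the volatile experiment. PYK10 is also a root marker, and of the 7 root markers listed only PYK10 and EXPA7, an expansin gene of root hairs, had a named probe set. EXPA7 was at or below the floor of 1 on 11 of the 16 arrays and at most 7.97. The part of root tissue in the levels of the family was not tested. JAL23 was at 31.6 to 78.8 in the 48 h controls and 43.0 to 63.7 in healthy leaves, groups between which PYK10 differed without overlap.

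Of the myrosinase list 1 of 9 genes had a named probe set. AT1G54020, listed with the myrosinase-associated proteins, had a log2 change of 6.82 (SE 0.43, adjusted p = 5e-07) in fed leaves, of 1.12 (SE 0.43, adjusted p = 0.28) at 48 h of volatiles and of 0.07 (SE 0.53, adjusted p = 0.99) at 24 h. Its 48 h arrays overlapped, at 26.3 to 80.6 with volatiles and 11.8 to 40.7 in the controls.

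Among the measured genes next to the lectin genes on the chromosomes, JAL22 and VPS46.2 were well detected and the others were near the floor. The gene listed on the other side of JAL23 from JAL22 had no matched probe set and was not measured here. Between JAL22 and JAL23 lies AT2G39320, with group means of at most 2.16 on the log2 scale and no called change. AT1G73040 lies between VPS46.2, whose annotation overlaps its end and which is named as a protein of multivesicular bodies, and AT1G73050. VPS46.2 rose with feeding by 1.67 (SE 0.16, adjusted p = 9.8e-06) and had a log2 change of -0.17 (SE 0.16, adjusted p = 0.74) at 48 h of volatiles. AT1G73050 was near the floor, with group means of at most 0.58. Whether probes lie in the overlap is not given in the sources used here.

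Among 5938 probe sets with 1 gene and a mean signal at or above the median, the profiles most like JAL23 over the 16 arrays were those of AT2G39420 (Pearson correlation 0.96), AT1G55210 (0.96), AT2G34810 (0.95), AT4G16670 (0.95) and AT2G17760 (0.94). Without the fed arrays their correlations with JAL23 were 0.92, 0.88, 0.83, 0.85 and 0.82 over 13 arrays. AT2G39420 had nearly the same difference between fed and healthy leaves as JAL23, at 4.17, but 1.00 at 48 h of volatiles where JAL23 had 1.92. AT2G34810 had 4.23 and 1.74. The remaining 3 had 1.43 to 2.39 with feeding.

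The profiles most like AT1G73040 were those of AT1G80130 (0.89), AT2G38740 (0.88), AT2G46420 (0.87), AT1G31220 (0.87) and AT4G33040 (0.86). AT1G80130, the most alike, had log2 differences of 0.10 at 24 h, 2.34 at 48 h and -1.23 with feeding, where AT1G73040 had -0.21, 1.97 and -0.47. AT4G33040 had 0.81 at 48 h and -0.98 with feeding. The other 3 had 0.50 to 0.73 at 48 h and -0.11 to 0.30 with feeding. These genes were chosen for their likeness over the same arrays, so the correlations are a description.

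**Figure D4:**
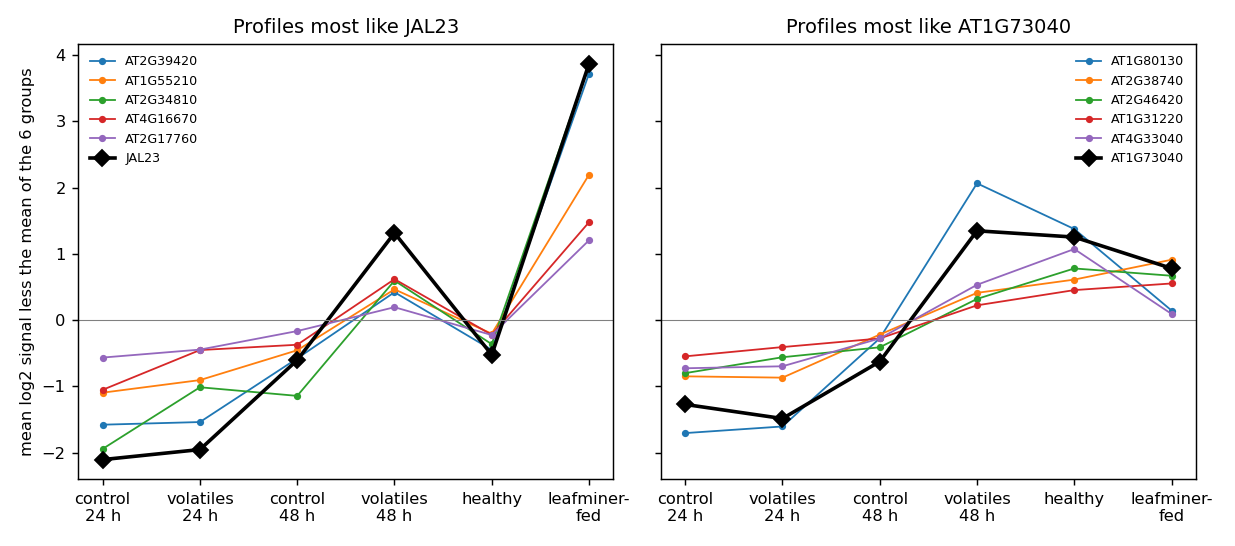
Mean log2 signal of each group less the mean of the 6 groups, for JAL23 (left, black diamonds) and AT1G73040 (right, black diamonds) and the 5 genes most like each. The JAL23 profiles end highest in fed leaves, and the AT1G73040 profiles are above the mean in the 48 h volatile and healthy groups. In fed leaves AT1G80130 and AT4G33040 lie near the mean, and the others shown lie above it.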

How the data were processed

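ATH1 arrays, 1 per sample, were hybridized with RNA of 16 samples in 6 groups taken from the labels. The authors scaled the arrays in MAS5 and deposited linear signal intensities. The methods name a later normalization in GeneSpring. Whether the deposited values carry it, and the scaling target, are not given in the sources used here. Values below 1 were set to 1 and log2 was taken, with no further scaling. After 64 control probe sets were left out, a mean per group was fitted to all 16 arrays with limma (version 3.58.1, R 4.3.3, eBayes with trend). Benjamini-Hochberg adjustment ran over 22746 probe sets. Calls needed an adjusted p of 0.05 or less and a 2-fold difference.

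JAL23, AT1G73040 and the lists were chosen with earlier results of these data known. Probe sets were named from the platform's annotation and the RefSeq table of TAIR10.1 (13513 with 1 gene, 503 with several, 8730 not listed). Named besides the 2 lectin genes were called family members, the 4 largest changes of well-detected family members per comparison, neighboring genes, leading members of the ER body and myrosinase lists, and the 5 most similar profiles. SAM, the test named in the methods, was not run. The replicate numbers did not pair the arrays. The fit was tested on simulated data. Alternatives were quantile normalization, median scaling, log2 of the value plus 16, a replicate block, no variance trend, the upper 60% of probe sets, fits on single comparisons, no fold threshold and leaving out each array. Figures were made in Python 3.11.15 (matplotlib 3.10.9).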

Additional observations from a re-analysis of the deposited data

Results flagged for a closer look

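The differences of AT1G73040 at 48 h of volatiles and with feeding had opposite signs. All 3 volatile arrays of 48 h lay above the mean of their controls (log2 difference 1.97), and all 3 fed arrays lay below the mean of healthy leaves (log2 difference -0.47). At 24 h the difference was -0.21, with overlapping arrays. Its sign depended on which array was left out (-0.69 to 0.26), so no direction can be given for 24 h. The difference between these responses was not tested, because the values that chose the gene are not recorded and may include them.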

How the results depend on the processing

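At 24 h the change of JAL23 turned from 0.15 to -0.14 after quantile normalization and to -0.16 after median scaling, which remove the median shift of 0.31 between these groups, and lay between -0.21 and 0.52 when 1 array was left out. That of AT1G73040 lay between -0.69 and 0.26 when 1 array was left out, and neither gene passed under any of the alternatives. With log2 of the value plus 16, AT1G73040 was 1.22 and JAL23 1.61 at 48 h. On that scale JAL23 with feeding was 4.00 and JAL23 between the control groups 0.97. These are smaller by construction. JAL23 with feeding was 4.07 after quantile normalization and 4.15 after median scaling. With 1 array left out, JAL23 lay between 1.60 and 2.30 at 48 h and between 4.30 and 4.58 with feeding, and AT1G73040 between 1.59 and 2.39 and between -0.62 and -0.31. Between the control groups JAL23 lay between 1.12 and 1.78 and AT1G73040 between 0.24 and 1.03. The other family members called at 48 h numbered 1 (AT1G52000) after quantile normalization, after median scaling and in the upper 60% of probe sets. With feeding 5 or 6 were called under each alternative and without any single array.

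The replicate numbers did not pair the arrays, since deviations of same-numbered arrays correlated between -0.04 and 0.05. With the replicate block the changes were the same (0.15 for JAL23 at 24 h, adjusted p = 0.88, and -0.21 for AT1G73040, adjusted p = 0.82), and the family counts were 0, 0 and 6.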

Other observations

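The 48 h control array with the highest signal of JAL23 (78.8, against 40.2 and 31.6) was also the highest of the 3 for PYK10 (1365, against 697 and 738), NAI2 (277, against 128 and 143) and JAL34 (470, against 234 and 297), but the lowest for NAI1 (14.4, against 18.5 and 21.5) and AT1G73040 (8.29, against 25.0 and 13.6). AT1G52000 was also lowest there (38.7, against 42.2 and 41.4). JAL22 (269, against 243 and 293) and JAL33 (265, against 253 and 268) lay between the others. The median signal of that array was 22.5, between those of the others (21.8 and 24.7). Without that array the 48 h difference of JAL23 was 2.30 in place of 1.92.

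The 48 h volatile array with the highest signals of JAL23 (273), AT1G73040 (85.2) and AT1G52000 (166) also had the highest median signal of the group (30.3, against 24.6 and 20.1). After median scaling the volatile arrays of 48 h had log2 values of 7.10 to 7.78 for JAL23, against 4.96 to 6.42 in the controls, and of 5.51 to 6.10 for AT1G73040, against 3.17 to 4.81.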
